A study of Homo sapiens with 12 samples.

Results

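Whether CP25 changed the decline of mRNAs once transcription had stopped was measured here as the difference between its effect at 2 h and its effect at 0 h. For each gene, the log2 ratio of CP25 to vehicle at 0 h was subtracted from the same ratio at 2 h. All 12 libraries of the study entered, 3 in each of 4 groups, and 12183 of the 23615 listed gene symbols were taken in because their mean over the libraries reached 1 FPKM. FPKM is the number of sequenced fragments normalised to transcript length and to library size, so it is a share of the library and not an amount per cell. A difference above 0 means that more of the transcript's share was left after 2 h with CP25 than with vehicle, and one below 0 means that less was left. A factor that scales a whole table cancels in this difference.

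The cells were HEK293T, an established line of human embryonic kidney origin that expresses SV40 large T antigen. All 4 groups received actinomycin D at 5 μg/mL, which blocks transcription, and before it either 2 μM CP25 or an equal volume of vehicle (peptide storage buffer) for 18 h. The vehicle and CP25 groups at 0 h were taken as the block was set, and the vehicle and CP25 groups at 2 h were taken 2 h later. The labels name CP25 as a macrocyclic inhibitor of the human decapping enzyme Dcp2 and number the replicates 1 to 3. They do not say whether the replicates were separate cultures, so the p-values rest on the spread among libraries of a group, which could be technical. The line is 1 cell type in culture, and the libraries hold poly(A) RNA in bulk. A change in decay shared by all mRNAs would not show, nor would fragments without a poly(A) tail, and fewer cells of a state cannot be told apart from less RNA per cell.

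Most mRNAs of human cells are degraded after their poly(A) tail has been shortened by deadenylases. The 5′ cap is then removed by DCP2 together with DCP1 and the enhancers EDC3, EDC4, PATL1 and DDX6, and the ring of LSM1 to LSM7 binds the shortened 3′ end. The exonuclease XRN1 digests the decapped body from its 5′ end, while the exosome digests from the 3′ end and leaves a cap remnant for DCPS. Inhibition of DCP2 is therefore a means to ask which mRNAs depend on this route. The libraries hold poly(A) RNA, so mRNAs that kept their cap after losing most of their tail may be missed here.

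Depth was estimated from the smallest step between FPKM values, in units of 10⁶ fragments, at 14.0 to 23.7 for the libraries at 0 h and at 23.5 to 31.4 for those at 2 h. A 2 kb transcript at 1 FPKM was then covered by 28 to 62.8 fragments. Transcripts typical of the line were present in every library (VIM at 163 to 275 FPKM, LIN28B at 43.3 to 53.4 FPKM), and PTPRC of blood cells lay at or below 0.0097 FPKM. Libraries with the same number deviated together within each time but not between the times. A fit with the number as a block within each time is therefore given beside the fit without it for part of the results. Where it is not given, the 2 fits can still differ. Exact permutation, used for single genes, takes no account of this pairing. How many of all genes had vehicle and CP25 libraries without overlap at a time was not counted.

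No gene passed the test for a CP25 effect that differed between 2 h and 0 h. Of 12183 genes, limma called 0 at an adjusted p of 0.05 (0.0% of those tested), and with the replicate block it also called 0 (0.0%). The smallest adjusted p was 0.9998 without the block and 0.271 with it. At an unadjusted p under 0.05, 94 genes lay above 0 (0.772%) and 59 below (0.484%) in the limma fit without the block, 153 in all (1.26%). With the block those counts were 768 (6.3%) and 516 (4.24%), 1284 in all (10.5%). Taking each replicate number as a pair, the 3 ratios at 2 h all lay above the 3 at 0 h for 1239 genes (10.2%) and all below for 784 (6.44%), 2023 in all (16.6%). By value alone, 6532 genes (53.6%) had a difference above 0 and 5651 (46.4%) below. With libraries centred on their median 46.6% lay above 0, and 49.4% did with quantile normalization within each table, so this split follows the scaling. The unadjusted calls split into 69 above and 73 below with median centring, and into 78 above and 94 below with quantile normalization.

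The differences were small and narrow outside one class of genes. Over the 12017 genes that are not small RNA genes the median difference was 0.00816, the 5th and 95th percentiles were -0.18 and 0.20, and the SD was 0.12, all on the scale of log2(FPKM + 1). That scale understates the change of genes near 1 FPKM. Only 21 of these genes (0.175%) differed by more than 1.5-fold in value, and 4 by more than 2-fold. For 98.9% of these genes the 95% limma interval lay inside a 2-fold change in both directions, and for 87.9% it lay inside a 1.5-fold change, with no adjustment for multiple genes. With the replicate block the shares were 99.7% and 97.1%, and the median interval reached 1.126-fold to either side. Precision depended on level. With the block, a 1.5-fold change was excluded for 91.8% of genes at 1 to 5 FPKM, 98.5% at 5 to 20 FPKM and 99.5% at 20 to 100 FPKM. Without the block, it was excluded for 74.8% of the genes at 1 to 5 FPKM with the pseudocount of 1 FPKM and for 36.7% with a pseudocount of 0.1 FPKM.

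**Figure D1:**
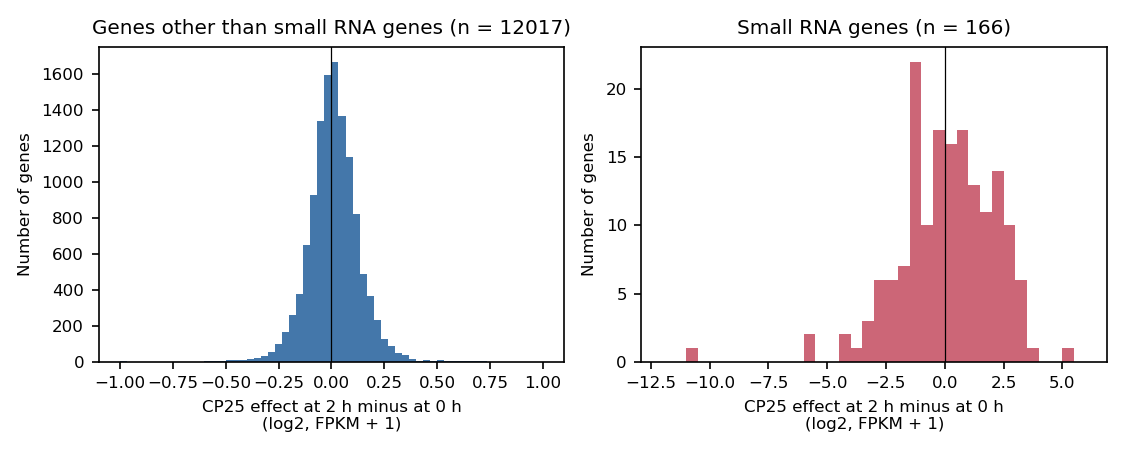
Number of genes (vertical axis) by the CP25 effect at 2 h minus that at 0 h (horizontal axis, log2 of FPKM + 1), for 12017 genes other than small RNA genes on the left and 166 small RNA genes on the right. The left axis spans 1 to either side of 0, and 4 genes beyond it are drawn in its lowest bin. Most of its genes lie within 0.2 of 0, while the small RNA genes spread from -10.99 to 5.40.

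The mRNA of the enzyme that CP25 is labelled to inhibit stood close to its 0 h share after 2 h in both treatments. DCP2 transcripts measured 23.1, 22.2 and 22.3 FPKM in vehicle and 22.1, 21.5 and 21.8 FPKM in CP25 at 0 h (replicates 1 to 3). After 2 h they measured 21.7, 23.7 and 20.6 FPKM in vehicle and 21.9, 24.3 and 18.6 FPKM in CP25. The CP25 libraries lay just below the vehicle libraries at 0 h, and the groups overlapped at 2 h. The share left after 2 h was 97.6% in vehicle and 99.1% in CP25. The difference of effects was 0.02 (SE 0.12, 95% interval -0.25 to 0.28, with the block -0.12 to 0.15, limma adjusted p = 1). With libraries centred on the median its sign turned, at -0.00134. These are values of its mRNA and do not measure the activity of the enzyme.

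The mRNAs of the partners of DCP2 were left at different shares after 2 h, and none passed the test. DCP1A, the cofactor that activates DCP2, had 48.3% of its level left in vehicle and 52.3% in CP25, with a difference of 0.11. Its paralogue DCP1B had 41.6% and 46.5% left, with a difference of 0.14. The 3 pair ratios of DCP1B at 2 h (0.0386, 0.0672 and 0.0996) all lay above those at 0 h (-0.0757, -0.0817 and -0.0486), as for 10.2% of all genes. Its unadjusted limma p was 0.261 without the block and 0.0361 with it. The scaffold EDC4 (-0.04), the enhancer EDC3 (-0.05), the bridging factor PATL1 (0.04) and the helicase DDX6 (-0.10) had overlapping pair ratios. LSM1, the subunit that sets the cytoplasmic LSM ring apart, had -0.03. The ring subunits LSM2 and LSM4 had -0.15 and -0.12, with pair ratios at 2 h that all lay below those at 0 h, as for 6.44% of all genes. Their unadjusted limma p was 0.209 and 0.405 without the block and 0.0211 and 0.0461 with it, a level that 10.5% of all genes reached with the block. PNRC2, which links decapping to nonsense-mediated decay, had 0.07, and its relative PNRC1, left at 23.0% in vehicle and 22.7% in CP25, had -0.06.

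XRN1, the exonuclease downstream of decapping, had the highest difference of the decapping list. It measured 9.95, 9.69 and 8.26 FPKM in vehicle and 8.96, 8.79 and 7.95 FPKM in CP25 at 0 h. At 2 h the vehicle libraries had 7.1, 7.79 and 7.6 FPKM and the CP25 libraries 8.62, 8.34 and 8.08 FPKM. CP25 thus lay below vehicle in each pair at 0 h, with overlapping groups, and above vehicle in every library at 2 h. The difference of 0.24 (95% interval 0.00835 to 0.48) had an unadjusted limma p of 0.0435, 0.00677 with the block, and an exact permutation p of 0.04. The permutation test is two-sided over 400 labellings and can give no p below 0.005. After adjustment over all genes the p was 1, and 0.317 with the block, so XRN1 did not pass. Its 3 pair ratios at 2 h all lay above those at 0 h, as for 10.2% of all genes. XRN1 transcripts have a GC content of 37.3% and a length of 5380 bases. In the lowest of 5 classes by GC content, described below, 75.7% of genes lay above 0, and in the longest of 5 classes by length 67.5%. The part of both in the value of XRN1 was not tested.

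Over the 20 genes of the decapping machinery, 9 had a difference above 0 and 11 below, with a median of -0.0055, against 53.6% above 0 and a median of 0.00826 over all 12183 genes. The median turned positive without vehicle replicate 2 at 2 h, at 0.0329, and after removal of a trend on transcript length and GC content it was -0.00894. Leaving out 1 library, here and below, kept its same-numbered partner in the fit, and whole pairs were not left out. Among 9 other enzymes that act on caps, 3 lay above 0 and 6 below (median -0.03, and 0.047 without vehicle replicate 2 at 2 h). The cap hydrolases NUDT16 and NUDT3 had 0.06 and -0.11, NUDT12, which acts on NAD caps, had 0.17, and the scavenger DCPS had -0.00112. EXOSC4, an exosome subunit whose mRNA is a reported DCP2 substrate, had 44.2% left in vehicle and 39% in CP25. Its levels at 2 h were 12.2, 15.2 and 15.9 FPKM in vehicle and 11.2, 12 and 16.3 FPKM in CP25, which overlap, and the difference was -0.20 (95% interval -0.74 to 0.34). IRF7, the other reported substrate, lay at or below 0.049 FPKM in every library and was not tested.

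**Figure D2:**
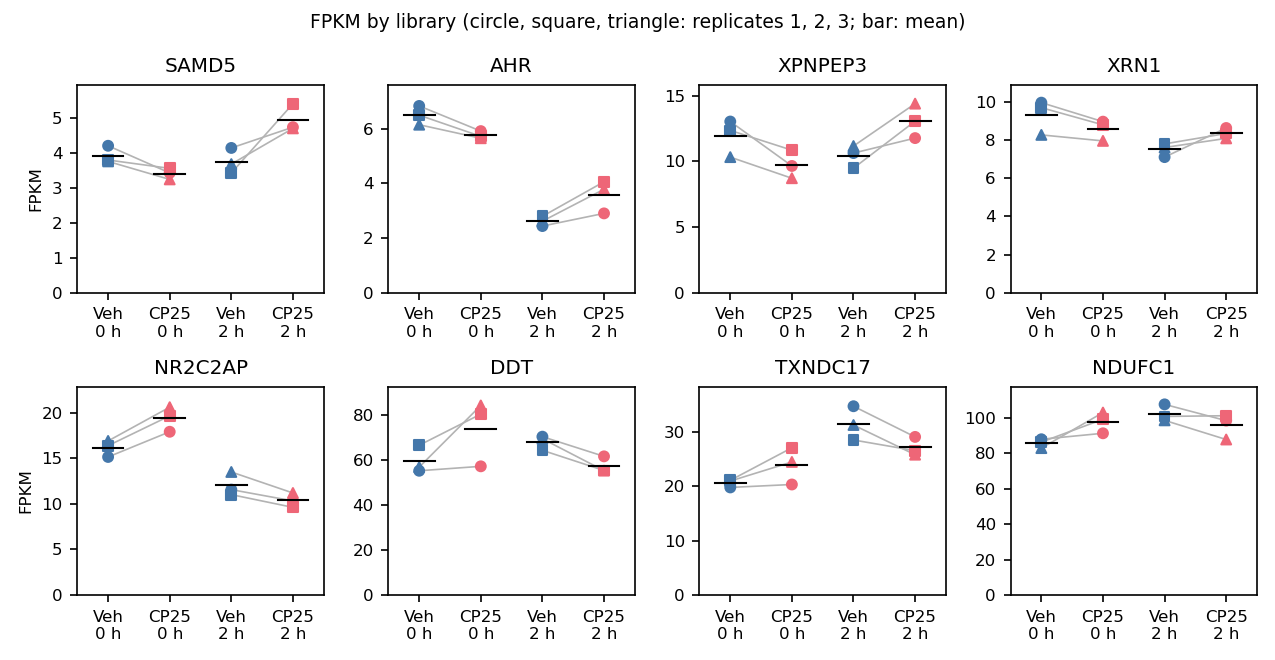
FPKM of 8 genes in each of the 12 libraries (vertical axis, from 0), by treatment and time (horizontal axis), with grey lines that join libraries of the same replicate number and bars at group means. In the upper row (SAMD5, AHR, XPNPEP3, XRN1) the lines slope down at 0 h and up at 2 h, and in the lower row (NR2C2AP, DDT, TXNDC17, NDUFC1) they slope up at 0 h and mostly down at 2 h.

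Transcripts that decline fastest after a block of transcription include many regulators of growth and signalling. The ratio of 2 h to 0 h is described here without a test, because the times stand in separate tables. The 12 transcripts named had the lowest mean of both 2 h to 0 h log2 ratios among genes with at least 10 FPKM at 0 h, a choice that does not use the difference between treatments. MYC, the growth-promoting transcription factor, measured 53.2, 74.5 and 67.2 FPKM in vehicle and 55.3, 79.1 and 61.5 FPKM in CP25 at 0 h. At 2 h it measured 5.71, 3.92 and 9.52 FPKM in vehicle and 7.29, 3.56 and 8.79 FPKM in CP25. Replicate 2 was the highest at 0 h and the lowest at 2 h in both treatments, and the groups overlapped at each time. The 95% interval of the difference of 0.03 was -0.90 to 0.95 without the block and -0.25 to 0.30 with it. For JUN, a subunit of AP-1, the difference of -0.09 had intervals of -0.94 to 0.76 and -0.48 to 0.30.

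NFKBIA, the inhibitor of NF-κB, was the member of the 12 with the smallest p. Its 2 h values were 0.688, 0.766 and 0.781 FPKM in vehicle and 0.513, 0.485 and 0.689 FPKM in CP25, after 11.1, 11.1 and 12.2 FPKM and 12.4, 11.1 and 12.8 FPKM at 0 h. The groups overlapped narrowly at 2 h, and CP25 was lower in each of the 3 pairs. The share left was 6.51 ± 0.436% in vehicle and 4.64 ± 0.916% in CP25 (SD, n = 3). Each 2 h library was divided by the mean 0 h FPKM of its treatment, so this SD, here and below, leaves out the spread at 0 h. The difference was -0.24 (95% interval -0.48 to 0.0129, limma unadjusted p = 0.0612, 0.0207 with the block, adjusted p = 1 and 0.405). BAMBI, a pseudoreceptor of TGF-β signalling, leaned the other way. Its share left was 3.76 ± 0.323% in vehicle and 4.76 ± 0.0883% in CP25 (SD, n = 3). At 0 h it had 12.2, 9.35 and 11.2 FPKM in vehicle and 11.9, 9.98 and 10.2 FPKM in CP25, a spread that this SD does not hold. At 2 h it had 0.448, 0.405 and 0.378 FPKM against 0.503, 0.505 and 0.52 FPKM. These 2 h groups do not overlap, but the pair ratios at 2 h overlapped those at 0 h, and the difference of 0.12 had a limma adjusted p of 1. NFKBIA and BAMBI lay below 1 FPKM in every library at 2 h, where the scale of log2(FPKM + 1) understates a change. Their shares left thus differ by more than the differences of effects show.

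The remaining fast-falling transcripts showed no shared direction. The NOTCH target HES1 (0.14), the mitotic inhibitor FBXO5 (0.09), SERTAD3 (0.11), the pseudokinase TRIB1 (0.03) and the zinc-finger repressor ZNF503 (0.03) lay above 0, each with overlapping pair ratios. ZNF703, a repressor related to ZNF503, lay at -0.15 and C15orf39 at -0.06. SERTAD3 and TRIB1 averaged below 1 FPKM at 2 h in both treatments, so their differences are understated by the scale too. The non-coding RNA SNAR-G1 was listed at 0 in 5 of the 6 libraries at 2 h, with 3.48 FPKM in vehicle replicate 3, so no fold is given. FBXO5 had a blocked interval of -0.08 to 0.26 and ZNF503 one of -0.12 to 0.19. FBXO5 kept 13.0 ± 1.37% in vehicle and 13.9 ± 0.932% in CP25 (SD, n = 3). IER2, another immediate-early transcript, had a difference of 0.02 (blocked interval -0.16 to 0.20), and the long-lived glycolytic GAPDH had -0.04 (-0.18 to 0.0894). FOS lay between 0.0317 and 0.459 FPKM and was not tested.

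**Figure D3:**
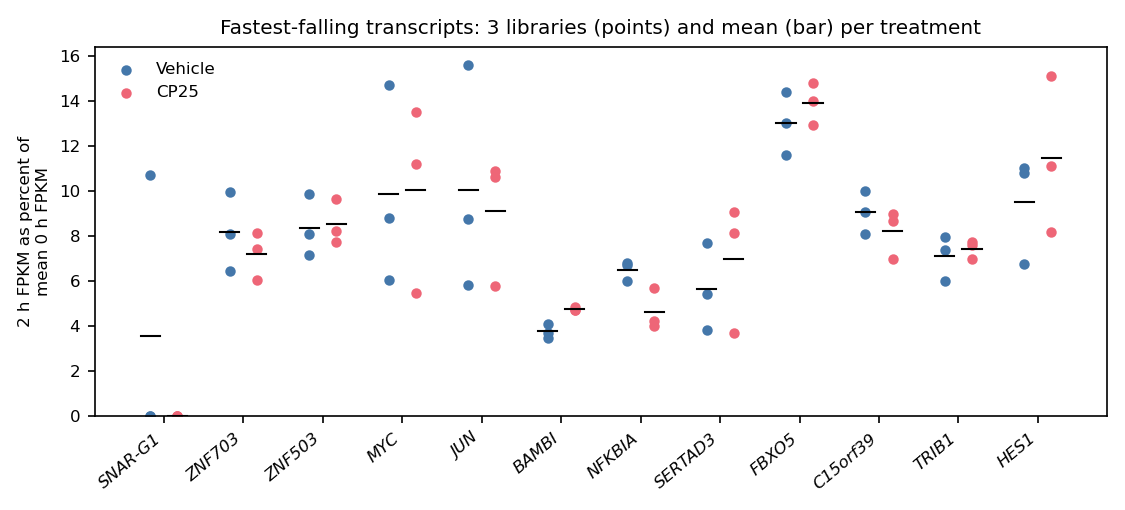
Share left after 2 h for the 12 fastest-falling transcripts, as the FPKM of each 2 h library in percent of the mean 0 h FPKM of its treatment (vertical axis), for vehicle and CP25 (3 points each, bar at the mean). The points of both treatments overlap for all but NFKBIA and BAMBI, which separate in opposite directions. For NFKBIA the 2 h FPKM themselves overlap. How many of all genes would separate in this way was not counted.

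When all genes other than small RNA genes were divided into 10 equal classes by their ratio of 2 h to 0 h, the difference of effects had a median near 0 in each class. In the fastest-falling class, 1202 genes, 48.6% had a difference above 0 and the median was -0.00326, with quartiles of -0.08 and 0.07. The highest median was 0.0194, in class 7 counted from the fastest (58.1% above 0), and the slowest class had 0.00045 (50.2% above 0). At an unadjusted p under 0.05 the fastest class had 10 genes without the block, against 136 over all 12017. With the block it had 53 above 0 and 56 below, against 754 and 507 over all 12017. The immediate-early and AU-rich list, mRNAs known for short lives, had 40 tested members of 65. Of these 20 lay above 0 and 20 below, and the median was 0.000458, or -0.0168 with libraries centred on the median and -0.00254 after removal of the trend on length and GC content. It ran from -0.0586 without CP25 replicate 1 at 0 h to 0.0943 without CP25 replicate 2 at 2 h. The lowest was SPRY2, a feedback inhibitor of growth factor signalling, at -0.30 (15% left in vehicle, 10.6% in CP25, exact permutation p = 0.075). The highest was the growth factor gene VEGFA at 0.20 (exact permutation p = 0.635). With the block their unadjusted limma p was 0.0457 and 0.108 (adjusted 0.461 and 0.572).

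The 12 genes above 0 with the smallest p had differences of 0.24 to 0.67, each with limma adjusted p = 1 (0.271 to 0.315 with the block). In every one, CP25 lay below vehicle at 0 h and above it at 2 h by the group means, and the 3 pair ratios at 2 h lay above those at 0 h. Since the genes were picked by this difference, that pattern describes the choice. SAMD5, which encodes a protein with a sterile alpha motif, measured 4.2, 3.8 and 3.76 FPKM in vehicle and 3.43, 3.56 and 3.24 FPKM in CP25 at 0 h, and 4.14, 3.43 and 3.68 against 4.74, 5.41 and 4.7 FPKM at 2 h. The groups did not overlap at either time, with CP25 low at 0 h and high at 2 h (difference 0.48, SE 0.11, 95% interval 0.23 to 0.73). AHR, a transcription factor activated by aromatic ligands, measured 6.83, 6.49 and 6.14 FPKM in vehicle and 5.91, 5.72 and 5.65 FPKM in CP25 at 0 h. At 2 h it measured 2.44, 2.79 and 2.62 FPKM in vehicle and 2.9, 4.06 and 3.78 FPKM in CP25, again without overlap. Vehicle kept 40.3% of it and CP25 62.2%, the lowest shares of the 12, and its difference was 0.48 (SE 0.13).

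XPNPEP3, a mitochondrial aminopeptidase, had 13.0, 12.4 and 10.3 FPKM in vehicle and 9.65, 10.9 and 8.72 FPKM in CP25 at 0 h, and 10.6, 9.49 and 11.2 against 11.8, 13.1 and 14.4 FPKM at 2 h. The groups overlapped at 0 h and not at 2 h, and the difference was 0.56 (SE 0.15). NUP155, a scaffold protein of the nuclear pore, was the most abundant of the 12. It had 44.5, 50.3 and 49.3 FPKM in vehicle and 51.7, 58.7 and 52.9 FPKM in CP25 at 2 h, after 48.8, 50.3 and 49.7 against 44.6, 47.2 and 45.5 FPKM at 0 h (difference 0.29, SE 0.0939). The others were SPATA5, an ATPase of ribosome assembly (0.43), the mitochondrial outer membrane protein SYNJ2BP (0.41), the dystrophin-associated adaptor SNTB2 (0.42), RNFT2 (0.62), LMBRD2 (0.33), the translesion polymerase POLK (0.28) and KIAA0146 (0.24). RPS26P11 (0.67) is a pseudogene whose reads can be shared with ribosomal protein genes, so its value is uncertain.

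The 12 genes below 0 with the smallest p had differences of -0.27 to -0.82 and again limma adjusted p = 1 (0.271 to 0.343 with the block). NR2C2AP, which encodes a protein that binds the nuclear receptor TR4, had the smallest blocked p of all 12183 genes (2.49e-05, adjusted 0.271). It measured 15.2, 16.4 and 16.9 FPKM in vehicle and 17.9, 19.7 and 20.6 FPKM in CP25 at 0 h, and 11.6, 11 and 13.5 against 10.3, 9.63 and 11.2 FPKM at 2 h. CP25 was above vehicle in every library at 0 h, and the groups overlapped at 2 h. The share left was 74.5% in vehicle and 53.5% in CP25, a difference of -0.44 (95% interval -0.71 to -0.18, with the block -0.56 to -0.33). ICAM3, an adhesion molecule, was separated at both times, with 2.58, 2.9 and 2.76 against 3.29, 3.84 and 3.29 FPKM at 0 h and 2.02, 1.96 and 2.11 against 1.68, 1.77 and 1.89 FPKM at 2 h for vehicle and CP25 (difference -0.38, SE 0.11). ITGAE, an integrin subunit, was also separated at both times (-0.34), and C9orf89 only at 2 h (-0.51).

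TXNDC17, a thioredoxin-like reductase, measured 19.8, 21.1 and 21.0 FPKM in vehicle and 20.4, 27.1 and 24.5 FPKM in CP25 at 0 h. Its 2 h values were 34.8, 28.6 and 31.3 FPKM in vehicle and 29.1, 26.6 and 25.9 FPKM in CP25, so the groups overlapped at both times (difference -0.40, SE 0.14). NDUFC1, a subunit of respiratory complex I, had a difference of -0.28, the Golgi protein YIPF1 -0.27, CHID1 -0.27 and the long non-coding RNA CRNDE -0.29. DDT (-0.53), a tautomerase related to the cytokine MIF, MAP1LC3B2 (-0.58), a copy of an autophagy gene, and the read-through symbol TGIF2-C20orf24 (-0.82) share sequence with neighbouring or near-identical genes, so the split of reads is uncertain. The 2 sets differed in the make-up of their transcripts. Of the 12 above 0, 8 had a GC content below the median of all genes (49.4%) and their median length was 3680 bases. Of the 12 below 0, 4 did and their median length was 789 bases.

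That property moved with the difference of effects across all genes. Genes were divided into 5 equal classes by the GC content of their transcripts. In the class with the lowest GC content, 75.7% of 2339 genes had a difference above 0 and the median was 0.0626, and in the class with the highest GC content 34.4% of 2339 did and the median was -0.0391. At 2 h the median log2 ratio of CP25 to vehicle was 0.0222, 0.0312 and 0.0794 in the 3 pairs for the lowest class and -0.0237, -0.0346 and -0.0507 for the highest. At 0 h it was -0.0116, -0.0323 and -0.0136 for the lowest class, and 0.0498, 0.0268 and -0.066 for the highest. In the highest class the third pair at 0 h thus had the opposite sign to the other pairs at 0 h. The medians of the highest and the lowest class were 0.00456 and 0.027 without vehicle replicate 3 at 2 h. By length, 67.5% of the longest of 5 classes lay above 0 (median 0.0403) and 45.7% of the shortest (median -0.0101). The part of GC content and length in the values of single genes and lists was not tested. Medians after removal of a fitted trend on both are given with the lists that follow.

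**Figure D4:**
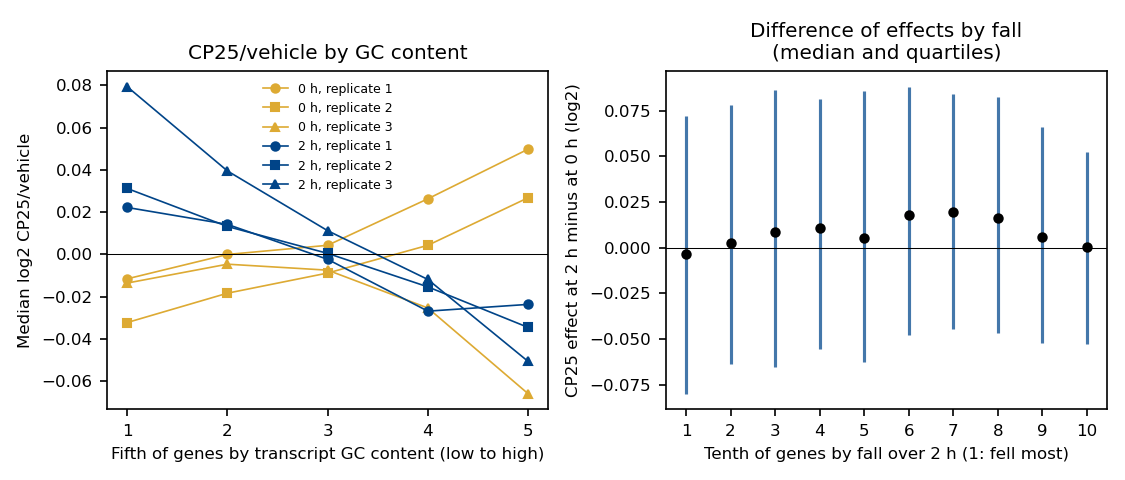
On the left, the median log2 ratio of CP25 to vehicle (vertical axis) in each of 5 classes of genes by transcript GC content, from low to high (horizontal axis), for the 3 replicate pairs at 0 h (yellow) and at 2 h (blue). The 3 lines at 2 h all descend, from between 0.0222 and 0.0794 to between -0.0237 and -0.0507. On the right, the median and quartiles of the difference of effects (vertical axis) in 10 classes by fall over 2 h (horizontal axis), with every median between -0.00326 and 0.0194.

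Nuclear-encoded subunits of oxidative phosphorylation were the list with the lowest median. Of 78 tested members, 13 lay above 0 and 65 below, with a median of -0.0747, and 0 passed the test. At unadjusted limma p under 0.05 without the block there was 1 member, NDUFC1 (1.26% over all genes). With the block, 15 members lay below 0 and 1 above (4.24% and 6.3% over all genes). For 14 members the pair ratios at 2 h lay below those at 0 h (6.44% over all genes), for 1 above (10.2%). The median ratio of CP25 to vehicle was 0.0158, 0.0727 and 0.0752 in the 3 pairs at 0 h and -0.0782, -0.0643 and 0.0763 at 2 h, so replicate 3 had about the same value at both times. Without vehicle replicate 1 at 0 h the median was -0.00375, and after removal of the trend on length and GC content it was -0.058. UQCRQ, a subunit of complex III, had a difference of -0.30 (110% left in vehicle, 88.6% in CP25), and NDUFV3 of complex I had 0.19. Other lists of short, abundant mRNAs differed by value. Translation factors of the TOP class had a median of -0.00677 and host genes of small nucleolar RNAs 0.0222, while 3 lists lay further below 0. Cytoplasmic ribosomal proteins had 21 above 0 and 57 below (median -0.036), mitochondrial ribosomal proteins 29 and 46 (-0.0243), and proteasome subunits 6 and 28 (-0.0528). Each of these 3 medians was above 0 without vehicle replicate 1 at 0 h (0.0731, 0.0469 and 0.0135). After removal of the trend on length and GC content they were -0.0297, -0.0269 and -0.0545. With the block, 11, 9 and 6 members of these 3 lists lay below 0 at unadjusted limma p under 0.05, and 0 above. RPS29 and RPS19 of the small ribosomal subunit had -0.38 and -0.27, MRPL52 had -0.28 and PSMB5, a catalytic proteasome subunit, -0.19. The unadjusted limma p of RPS19 and MRPL52 was 0.21 and 0.0767 without the block and 0.000854 and 0.000968 with it (adjusted 0.271 for each).

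Genes of deadenylation, AU-rich and 3′ UTR binding, microRNA silencing and the m6A mark lay mostly above 0 by value. The exosome and SKI complex, which digests from the 3′ end, had 11 of 18 above 0 and a median of 0.0218. Of 21 deadenylation genes 17 lay above 0 (median 0.0626), of 17 proteins that bind AU-rich elements and 3′ UTRs 16 (0.0499), of 14 microRNA silencing genes 9 (0.0827) and of 13 factors of the m6A mark 10 (0.0646), and 0 members of the 4 lists passed. With libraries centred on the median, 12 of the 17 AU-rich binders lay above 0. CNOT6L, a catalytic deadenylase of the CCR4-NOT complex, had 5.82, 6.53 and 6.63 FPKM in vehicle and 6.96, 6.65 and 7.06 FPKM in CP25 at 2 h, without overlap, and 8.96, 9.77 and 9.41 against 8.41, 9.18 and 8.8 FPKM at 0 h, with overlap. Its difference was 0.19 (exact permutation p = 0.02, limma adjusted p = 1, and 0.405 with the block). AGO3, an Argonaute, had 0.26 and DICER1, the nuclease that makes microRNAs, 0.17. Their unadjusted limma p was 0.135 and 0.393 without the block and 0.00461 and 0.0125 with it (adjusted 0.298 and 0.359). TIA1, which binds AU-rich RNA, had 0.15, CELF1 -0.11, and ALKBH5, a demethylase of m6A, -0.31. With the length and GC trend removed the 4 medians were 0.0476, 0.0342, 0.0368 and 0.069, in the order named. Leaving out vehicle replicate 1 at 2 h brought the median of the AU-rich binders to 0.000452 and that of the microRNA silencing genes to 0.0204. Without CP25 replicate 2 at 0 h the deadenylation median was 0.0233, and without CP25 replicate 2 at 2 h that of the m6A factors was -0.000653.

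**Figure D5:**
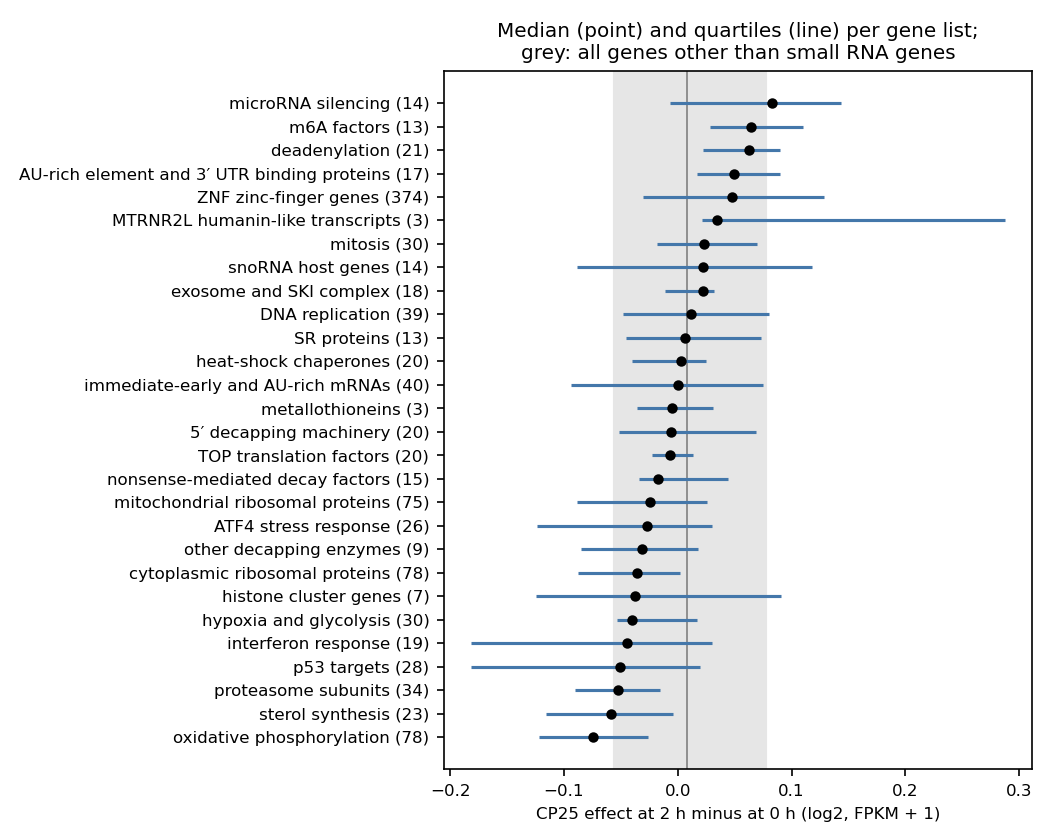
Median (point) and quartiles (line) of the CP25 effect at 2 h minus that at 0 h (horizontal axis, log2 of FPKM + 1) for each gene list, with the number of tested genes in brackets; the list of small RNA genes is left out. The grey band gives the quartiles over 12017 genes other than small RNA genes, and every list median lies between -0.0747 and 0.0827.

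Other lists of the decay field and of stress showed values on both sides. Zinc-finger genes of the ZNF family, which include many short-lived mRNAs, had 237 of 374 above 0 (median 0.0474). ZNF577 had 0.57 (36.1% left in vehicle, 71.7% in CP25, exact permutation p = 0.04, limma adjusted p = 1, and 0.315 with the block) and ZNF524 had -0.36. Of 15 factors of nonsense-mediated decay 7 lay above 0 (median -0.0171), and the kinase SMG1 had 0.26. Host genes of small nucleolar RNAs, whose spliced transcripts are known targets of nonsense-mediated decay, had 9 of 14 above 0 (median 0.0222) with wide spread. SNHG15 had 6.48, 7.22 and 8.62 FPKM in vehicle and 4.13, 5.83 and 7.11 FPKM in CP25 at 2 h, lower in each pair while the groups overlapped, after 24.7, 25.7 and 25.7 against 27.5, 25.5 and 26.6 FPKM at 0 h. Its difference was -0.41 (95% interval -0.84 to 0.0128, blocked -0.62 to -0.21, adjusted p = 1 and 0.271). SNHG3 lay at 0.35 (95% interval -0.20 to 0.89, blocked 0.15 to 0.55). Sterol synthesis genes had 4 of 23 above 0 (median -0.0587), with the kinase PMVK at -0.27, and p53 targets 11 of 28 (-0.0504), with the cell-cycle inhibitor CDKN1A at -0.28 and MDM2, which degrades p53, at 0.13. Interferon response genes had 7 of 19 above 0 (-0.0443). Single libraries moved these medians. The sterol median was -0.00377 without vehicle replicate 3 at 2 h, the p53 median 0.0129 without CP25 replicate 2 at 2 h, and the interferon median -0.02 without vehicle replicate 3 at 0 h and -0.152 without vehicle replicate 2 at 2 h. The zinc-finger median was 0.0193 and that of the snoRNA host genes 0.0929 without CP25 replicate 2 at 2 h, and the host genes stood at -0.0189 without vehicle replicate 1 at 0 h. For the factors of nonsense-mediated decay the median ran from -0.0845 without CP25 replicate 2 to 0.0835 without vehicle replicate 2, both at 2 h. After removal of the trend on length and GC content the medians were 0.0316 for zinc-finger genes, -0.00384 for nonsense-mediated decay, 0.0166 for the host genes, -0.0659 for sterol synthesis, -0.0587 for p53 targets and -0.0393 for interferon response genes.

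Small RNA genes gave nearly all of the large differences. The class was set by symbol, and 166 of its 1722 listed symbols were tested. Most are small nucleolar RNAs, which guide chemical modification of ribosomal RNA, microRNA hairpins and other short non-coding genes. The microRNA host genes MIR17HG, MIR210HG and MIR600HG fell into it by their symbols, while SNAR-E and SNAR-G1 were counted with the other genes. Of the 166, 106 differed by more than 2-fold in value, against 4 of 12017 other genes, and over all genes 56 lay above 2-fold (0.46%) and 54 below it (0.443%). The median annotated length was 110 bases in this class and 1822 in the others, and 145 of the 166 (87.3%) were listed at 0 in at least 1 library, against 5 (0.0416%) of the others. FPKM divides by length, so a value of a short gene rests on fewer fragments than the same value of a long one. Mature small nucleolar RNAs and microRNAs are not polyadenylated.

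The sequences of 3 box C/D small nucleolar RNAs from the transcript annotation show how short the features behind these values are. Capitals mark TGATGA, a form of the C box, where it was found, and the last CTGA of the sequence, the D box, searched on the sense strand only.
SNORD32A: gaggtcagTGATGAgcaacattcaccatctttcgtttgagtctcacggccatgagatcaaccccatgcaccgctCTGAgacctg
SNORD33: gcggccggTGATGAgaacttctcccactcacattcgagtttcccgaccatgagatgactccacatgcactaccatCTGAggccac
SNORD63: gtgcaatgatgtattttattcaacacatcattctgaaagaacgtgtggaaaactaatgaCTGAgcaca
They are 84, 85 and 68 bases long. TGATGA was not found in SNORD63, and of 288 SNORD transcripts in the annotation 77.4% hold it and 76.4% hold it with a later CTGA.

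SNORD63 was listed at 0 in 11 libraries and at 75785 FPKM in CP25 replicate 3 at 2 h, which was 12.6% of the summed FPKM of that library. Its difference of 5.40 rests on that library alone (limma unadjusted p = 0.251). SNORD32A was listed at 122 FPKM in CP25 replicate 1 and 65.9 FPKM in CP25 replicate 3 at 0 h and at 0 in the other 10 libraries. SNORD33 appeared in 2 libraries, CP25 replicate 2 at 0 h (85.8 FPKM) and vehicle replicate 3 at 2 h (52.1 FPKM). SNORD76 had the largest difference below 0. It was listed at 0, 370 and 0 FPKM in vehicle and 426, 114 and 153 FPKM in CP25 at 0 h, and at 52.7, 54.9 and 137 FPKM in vehicle and 0 in all 3 CP25 libraries at 2 h (unadjusted p = 0.000741, adjusted p = 1). Since groups are listed at 0, no fold is given. Without vehicle replicate 2 at 0 h, limma called it (adjusted p = 1.06e-05). SNORD50A was listed in CP25 replicates 2 and 3 at 0 h alone, at 885 and 294 FPKM.

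The microRNA gene MIR4737 was listed at 55.4 and 64.8 FPKM in CP25 replicates 1 and 2 at 2 h and at 0 in the other 10 libraries. It had the highest difference of any microRNA gene tested, and its mature sequence of 20 bases from RefSeq (GRCh38.p14) is shown with the seed, bases 2 to 8, in capitals.
hsa-miR-4737: aUGCGAGGaugcugacagug
Its difference was 3.95 (unadjusted limma p = 0.0333, adjusted p = 1, exact permutation p = 0.4), and without CP25 replicate 3 at 2 h it was called (adjusted p = 4.52e-09). Leaving out single libraries made limma call 0 to 3 genes, and each of these calls was a gene with libraries at 0. They were SNORD76, SNORD50A, SNORD32A, SNORD88C, SNORD21, MIR1260B, MIR570, MIR4461, MIR4737 and SNAR-E.

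Outside the small RNA genes, 4 symbols differed by more than 2-fold in value, and they are named here after their values were seen. COMMD3-BMI1 (-2.07) and INO80B-WBP1 (-1.35) are read-through symbols that join neighbouring genes, FAM45A (-1.05) has a near-identical copy, and SNAR-E (-2.15) is a short non-coding RNA listed in 2 of 12 libraries. COMMD3-BMI1 ranged from 0.0015 to 20.6 FPKM. Over 42 tested read-through symbols the SD of the difference was 0.479, against 0.162 for the tested genes they join. The unadjusted limma p of the 4 was 0.0625, 0.0386, 0.0686 and 0.036, in the order named, and each adjusted p was 1.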

How the data were processed

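The deposited values are FPKM, 1 column per library, which the authors deposited in 1 table per time. The submitters' processing notes name Bowtie2 2.2.3, Trimmomatic 0.36, CASAVA 1.8.2 and the hg19 build. What program and annotation made the FPKM values is not given in the sources used here. No read counts were used, and the depth is an estimate. Values were taken to log2(FPKM + 1) for the genes that averaged 1 FPKM or more across all 12 libraries. The contrast (CP25 minus vehicle at 2 h) minus (CP25 minus vehicle at 0 h) was fitted over all 12 libraries with limma 3.58.1 in R 4.3.3, with variances moderated along a trend in mean level, and p-values were adjusted by Benjamini-Hochberg over 12183 genes at 0.05. Exact two-sided permutation of treatments within each time used 400 labellings for single genes. The fit without the block was run on simulated data in which libraries varied independently. Those data lack the pairing described next, so the run does not show how the fit behaves with it.

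The replicate numbers were checked for pairing. Deviations from the group means of same-numbered vehicle and CP25 libraries correlated across 12017 genes at 0.731, 0.573 and 0.519 at 0 h and at 0.663, 0.838 and 0.461 at 2 h, and between the times at -0.428 to 0.129. They were therefore taken as pairs within each time. The data alone show this pairing, as no label says what a number marks. With the block, each number within each time had its own term.

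Members, gene lists and tests were chosen with earlier results of these data known. Named genes were the 12 per direction with the smallest p (small RNA, clone-type and date-like symbols skipped), fixed decay genes and reported substrates, the 12 fastest-falling with at least 10 FPKM at 0 h, and up to 2 extremes per list and direction. Transcript length and GC content were medians over GENCODE 29 transcripts of a symbol, matched for 11853 of the tested genes (97.3%). They describe that annotation, not the one behind the FPKM values. Of the listed symbols, 28 had been turned into dates and are not named. Alternatives were other pseudocounts, filters, scalings, limma settings, replicate blocks and single libraries left out, and removal of a length and GC trend was added after the data were seen.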

Additional observations from a re-analysis of the deposited data

How the results depend on the processing

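Leaving out 1 library at a time gave 0 to 3 genes called, 70 to 288 genes at unadjusted p under 0.05, and 96.48 to 97.58% of genes whose interval excluded a 2-fold change. Each time the same-numbered partner of that library stayed in the fit. These values and the ranges below therefore do not show what leaving out a whole pair would give. The highest and lowest unadjusted counts came without CP25 replicates 1 and 3 at 0 h. Across the other alternatives no gene was called. Genes at unadjusted p under 0.05 were 153 as reported, 407 with no filter on low values, 88 at a mean of at least 5 FPKM, and 111 with a length and GC trend removed. With the replicate block over both times they were 272, with the replicate block within each time 1284, and with that block and the trend removed 1079. The percent of genes whose interval excluded a 2-fold change was 97.58 as reported. It was 94.11 with a pseudocount of 0.1 FPKM, 94.87 with no pseudocount, 98.49 at a mean of at least 5 FPKM, 98.38 with the replicate block within each time, 99.04 without small RNA genes, 99.15 with the trend removed and 99.8 with the trend removed and the block. Both fits with the trend removed were added after the data were seen, and they hold 11692 genes. The paired fit changed no call. Of the named genes' values, 2365 kept their direction and their side of the threshold, 10 passed it only in the alternative (the calls without 1 library named above) and 68 turned sign. The count of 2365 includes the permutation test and the fits that changed only the variance model, the replicate block or the filter. Those could not turn the sign of a difference, so the count is no measure of stability. DCP2 turned to -0.00134 with libraries centred on the median, -0.00633 with quantile normalization and -0.0746 with the trend removed, EDC4 to 0.00139 and DCPS to 0.0253 with the trend removed, with or without the block. Without 1 library, directions turned within the ranges -0.0697 to 0.116 for DCP2, -0.134 to 0.0374 for EDC3, -0.167 to 0.063 for EDC4, -0.0681 to 0.131 for PATL1, -0.203 to 0.00245 for DDX6, -0.0822 to 0.0309 for LSM1, -0.257 to 0.271 for PNRC1, -0.004 to 0.137 for PNRC2, -0.000202 to 0.113 for NUDT16, -0.266 to 0.0674 for NUDT3 and -0.105 to 0.109 for DCPS. The same held for MYC at -0.232 to 0.353, JUN at -0.36 to 0.222, IER2 at -0.131 to 0.185, GAPDH at -0.201 to 0.133, SNAR-G1 at -0.931 to 0.151, ZNF503 at -0.0551 to 0.134, C15orf39 at -0.165 to 0.0031, TRIB1 at -0.0147 to 0.0701, HES1 at -0.00495 to 0.282, VEGFA at -0.114 to 0.48, CDKN1A at -0.621 to 0.0379 and SNORD63 at 0 to 8.1. The cause of these changes was not tested. Intervals were widest for genes at 1 to 5 FPKM.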

Other observations

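The gene lists not described in full above had 0 members past the test. Mitosis genes had 18 of 30 above 0 (median 0.0227), with the long mRNAs of the kinetochore proteins CENPE and CENPF at 0.24 and 0.22. CENPE had 97.8% left in vehicle and 117% in CP25, and CENPF 86.9% and 103%. DNA replication genes had 20 of 39 above 0 (0.0115), the exosome and SKI complex 11 of 18 (0.0218), SR proteins of splicing 7 of 13 (0.0068), heat-shock chaperones 12 of 20 (0.00317) and translation factors of the TOP class 9 of 20 (-0.00677). With libraries centred on the median, the medians of DNA replication, SR protein and heat-shock genes turned to -0.00576, -0.0104 and -0.0141, and with quantile normalization that of the TOP class turned to 0.00904. Hypoxia and glycolysis genes had 10 of 30 above 0 (-0.0404) and ATF4 stress response genes 9 of 26 (-0.0272). Both moved with single libraries: the hypoxia median was -0.207 without vehicle replicate 2 and 0.174 without CP25 replicate 2 at 2 h, and the ATF4 median -0.127 and 0.0612 without the same libraries. These libraries are a same-numbered pair, and leaving out both was not tested. After removal of the trend on length and GC content the medians of the mitosis, exosome, SR protein and heat-shock lists lay at -0.00678, -0.0102, -0.0176 and -0.00778, and those of the TOP class and the metallothioneins at 0.00522 and 0.00494.

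Lists with few tested members varied more. Of 7 tested histone cluster genes out of 73 listed, 3 lay above 0 (median -0.0375). HIST1H2BD, an H2B gene, had 3.77, 2.63 and 2.7 FPKM in vehicle and 2.07, 2.21 and 1.28 FPKM in CP25 at 2 h, without overlap. At 0 h it had 1.68, 2.74 and 2.17 against 2.82, 1.83 and 3.63 FPKM, with overlap (difference -0.72, exact permutation p = 0.04, limma adjusted p = 1, and 0.414 with the block). All 3 tested MTRNR2L transcripts, nuclear copies of a mitochondrial ribosomal RNA region, lay above 0 (2 of them with libraries centred on the median, and 2 after removal of the trend on length and GC content), with MTRNR2L2 at 0.54 (exact permutation p = 0.405), and reads can be shared between these copies and the mitochondrial gene. Of 3 metallothioneins 1 lay above 0 (median -0.00525).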
